A study of Mus musculus with 8 samples.

Results

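The genes described here encode the neurofilament subunits and other proteins of the axon's cytoskeleton and membrane: Nefl, Nefm, Nefh, Prph, Mapt, Map2, Map1b, Gap43, Cntn2 and Syt1. They were chosen by name, and each was read from the probe set that carries its symbol and no other. Of the 10 genes listed, 9 were measured, out of 6855 genes tested in all; Gap43, a growth cone protein, was not analysed here. Each of the 9 had 1 such probe set.

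The samples were cultures of mouse sacral neural crest, the migratory cells of the embryo that give rise, at this level, to part of the nervous system of the hindgut. On 4 arrays the embryos carried 2 copies of the Dom allele of the transcription factor gene Sox10 (Dom/Dom), a frameshift mutation present in every cell of the embryo, and on 4 arrays they were wild type (WT). In both groups the neural tube behind somite 24 was dissected at embryonic day 9.5, kept in DMEM/F12 with 10% serum and taken away after 24 hours, and the RNA came from the cells that had crawled out of it, on Affymetrix Mouse Gene 1.0 ST arrays numbered as replicates 1 to 4 in each genotype. The labels give neither strain nor litter and do not say that replicates were separate embryos, so the p-values reflect how far these arrays vary, in part perhaps for technical reasons.

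Neurofilaments are the intermediate filaments of axons. They are assembled from a light chain (Nefl), a medium chain (Nefm) and a heavy chain (Nefh), and in peripheral neurons peripherin (Prph) joins them. Microtubules run beside them and are bound by tau (Mapt) in axons, by MAP2 (Map2) mainly in dendrites and by MAP1B (Map1b) in growing axons, while contactin 2 (Cntn2) is an adhesion molecule on the surface of early axons and synaptotagmin 1 (Syt1) is the calcium sensor of synaptic vesicle release. These genes mark neurons in general and are not specific to the derivatives of the neural crest. Transcripts were measured in whole cultures, so fewer neurons and less RNA per neuron cannot be told apart.

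Promoter windows of 300 bases were in the RefSeq table (GRCm38.p6) for 5 of the 9 genes, and those of 3 are shown: Cntn2 and Map2, whose levels differed most between replicate numbers among the 5, and Prph, which did not share that pattern. Each runs 5′ to 3′ on the gene's strand, from 250 bases before the annotated start to 50 after it, at chr1:132542891-132543190 on the minus strand for Cntn2, chr1:66175079-66175378 on the plus strand for Map2 and chr15:99054924-99055223 on the plus strand for Prph. Capitals mark E-boxes (CANNTG), the sequence bound by basic helix-loop-helix factors, among them the proneural proteins.
Cntn2: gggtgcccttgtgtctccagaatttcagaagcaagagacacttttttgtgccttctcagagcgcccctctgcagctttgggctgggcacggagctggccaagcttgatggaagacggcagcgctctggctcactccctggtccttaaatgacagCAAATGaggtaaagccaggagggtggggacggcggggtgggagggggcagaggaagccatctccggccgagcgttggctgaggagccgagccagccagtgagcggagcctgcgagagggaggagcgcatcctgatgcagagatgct
Map2: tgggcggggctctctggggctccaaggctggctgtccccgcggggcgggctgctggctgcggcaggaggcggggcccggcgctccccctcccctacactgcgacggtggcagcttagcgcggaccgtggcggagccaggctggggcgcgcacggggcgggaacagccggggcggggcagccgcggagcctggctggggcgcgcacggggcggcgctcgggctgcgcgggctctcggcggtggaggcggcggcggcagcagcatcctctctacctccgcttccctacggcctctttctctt
Prph: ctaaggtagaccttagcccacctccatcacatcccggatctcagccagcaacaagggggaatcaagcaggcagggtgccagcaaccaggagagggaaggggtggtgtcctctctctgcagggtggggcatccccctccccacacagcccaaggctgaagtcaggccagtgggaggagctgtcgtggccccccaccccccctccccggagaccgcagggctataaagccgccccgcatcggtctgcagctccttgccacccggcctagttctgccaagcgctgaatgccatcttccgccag
The Cntn2 window held 1 E-box and the windows of Map2 and Prph held 0, where 72.3% of the 32851 windows of the table held at least 1. Over the 6 windows of the 5 genes (Syt1 has 2 starts), the E-box was found in 3. Searched on both strands, the SOX-type sequences ACAAAG and ACAATG were found in 1 and 0 of the 6 windows, against 18.7% and 12.6% of all windows, and in neither form in the 3 printed here. The TATA box TATAAA stood in the windows of Prph and Map1b, against 13.6% of all windows. GGGCGG, the GC box, was found in 4 of the 6 windows, against 35.7% of all windows. It occurred 5 times in that of Map2, where 77.7% of the bases were G or C. These are matches of letters only.

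Levels are log2 values after RMA, a method that removes background, scales the arrays to each other and joins the probes of a set. They are compared between arrays for the same gene and not between genes, since probe sets differ in brightness. As a rough gauge of background, the 213 olfactory receptor genes on this part of the array had a median level of 6.54 log2 units and a 95th percentile of 8.22. All 8 arrays lay above 8.22 for 8 of the 9 genes, and 7 of 8 arrays did for Prph. Beside these, Sox10 itself stood at 9.98, 10.94, 10.52 and 10.55 log2 units in Dom/Dom replicates 1 to 4, against 11.67, 11.46, 11.89 and 11.75 in WT (difference -1.20, limma adjusted p = 0.0168).

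Between the genotypes, with all 8 arrays, 0 of the 9 genes passed the threshold of 0.05 on limma's adjusted p. Of the 6855 genes tested, 33 (0.481%) did. This does not show that the 9 genes were unchanged, since their intervals leave room for a difference. The intervals that reached lowest ran from -0.83 to 0.09 log2 units (Cntn2) and from -0.74 to 0.22 (Mapt). With the replicate number as a block, 0 of 9 passed, against 1.50% of all genes. At an unadjusted p under 0.05, 0 of 9 passed without the block and 1 with it, against 6.11% and 13.9% of all genes. The difference, Dom/Dom minus WT, was below 0 for 8 of the 9 genes, with a median of -0.21 log2 units over the 9, while 50.4% of all genes were below 0 and their median was 0.00. In 0 of the 9 genes did the 2 groups of 4 arrays separate without overlap, as they did for 3.78% of all genes. Among the 9 genes, the direction of the difference varied with the replicate number. In replicate 1, 7 of the 9 were higher in Dom/Dom than in the WT array of the same number, against 46.8% of all genes. In replicates 2, 3 and 4, 7, 8 and 8 of the 9 were lower, against 43.4%, 53.7% and 49.8% of all genes.

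The light chain gene Nefl (chromosome 14) stood at 12.65, 11.94, 12.32 and 12.24 log2 units in Dom/Dom replicates 1 to 4, against 12.27, 12.28, 12.71 and 12.75 in WT. The highest Dom/Dom array, replicate 1, lay among the WT arrays, and the lowest WT arrays, replicates 1 and 2, lay among the Dom/Dom ones. The mean level was 12.29 ± 0.29 in Dom/Dom and 12.50 ± 0.26 in WT (SD, n = 4 each), and limma gave a difference of -0.21 with a 95% interval from -0.57 to 0.15 (adjusted p = 1.00). Nefm, its neighbour among the protein-coding genes of chromosome 14, had 11.27, 10.65, 10.88 and 10.87 log2 units in Dom/Dom, against 10.80, 11.07, 11.33 and 11.32 in WT. Replicate 1 was the highest Dom/Dom array and the lowest WT array. The difference in Nefm was -0.21, with an interval from -0.55 to 0.12 (limma adjusted p = 1.00). Nefl and Nefm had the most similar profiles of all 36 pairs among the 9 genes: after each gene's own mean was taken away, they differed by a mean of 0.061 log2 units over the 8 arrays.

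The heavy chain gene Nefh (chromosome 11) had 9.22, 9.06, 9.15 and 9.02 log2 units in Dom/Dom replicates 1 to 4, against 9.23, 8.96, 9.28 and 9.21 in WT. The 8 arrays lay close together, and the difference of -0.06 had an interval from -0.26 to 0.15. Prph (chromosome 15) had 8.37, 8.22, 8.43 and 8.38 log2 units in Dom/Dom, against 8.63, 8.18, 8.83 and 8.63 in WT. Here 3 of the 4 WT arrays lay above every Dom/Dom array, and WT replicate 2 lay below them all. The difference in Prph was -0.22 with an interval from -0.50 to 0.07 (limma adjusted p = 1.00 for both genes). In neither of these genes was Dom/Dom replicate 1 far from the other Dom/Dom arrays: it stood 0.15 above their mean for Nefh and 0.02 above it for Prph, against 0.48 for Nefl and 0.47 for Nefm. The profiles of Nefh and Prph differed from that of Mapt by 0.317 and 0.311 log2 units, 2 of the 3 least similar pairs.

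Among the microtubule-associated proteins, the tau gene Mapt (chromosome 11) had 9.28, 8.34, 8.58 and 8.37 log2 units in Dom/Dom replicates 1 to 4, against 8.43, 9.04, 9.10 and 9.04 in WT. Dom/Dom replicate 1 was above every WT array, and WT replicate 1 was below every other WT array and among the low Dom/Dom ones. The difference between same-numbered arrays was 0.86 in replicate 1 and -0.70, -0.52 and -0.68 in replicates 2, 3 and 4. Map2 (chromosome 1) had 12.60, 11.71, 11.66 and 11.82 log2 units in Dom/Dom, against 11.71, 12.12, 12.19 and 12.26 in WT. Again Dom/Dom replicate 1 was the highest of all 8 arrays, and WT replicate 1 lay within the range of the remaining Dom/Dom arrays. Its differences were 0.89 in replicate 1 and -0.41, -0.53 and -0.44 in replicates 2 to 4. Map1b (chromosome 13) had 13.81, 13.41, 13.64 and 13.67 log2 units in Dom/Dom, against 13.54, 13.59, 13.77 and 13.78 in WT, an overlap at all but the ends. Over all arrays, limma gave a difference of -0.26 for Mapt (interval -0.74 to 0.22), -0.12 for Map2 (-0.57 to 0.33) and -0.03 for Map1b (-0.26 to 0.19), with an adjusted p of 1.00 for each.

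Of the membrane proteins, Cntn2 (chromosome 1) had 11.14, 10.10, 10.27 and 10.22 log2 units in Dom/Dom replicates 1 to 4, against 10.56, 10.73, 11.00 and 10.93 in WT. The arrays of Dom/Dom replicates 2, 3 and 4 were below every WT array, and Dom/Dom replicate 1 was above every one of them. The mean level was 10.43 ± 0.48 in Dom/Dom and 10.80 ± 0.20 in WT (SD, n = 4 each), a difference of -0.37 with an interval from -0.83 to 0.09 (limma adjusted p = 1.00). Syt1 (chromosome 10) had 10.60, 10.16, 10.42 and 10.58 log2 units in Dom/Dom, against 10.09, 10.38, 10.34 and 10.56 in WT. It was the exception to the direction of the others, with a difference of 0.10 (interval -0.18 to 0.37), and it was lower in Dom/Dom in 1 of 4 same-numbered comparisons. These 95% intervals are not adjusted for the number of genes and come from the fit without the replicate block, and all 9 include 0; with the block 8 of 9 do, the exception being Prph (-0.40 to -0.03, unadjusted p = 0.0261 by limma, adjusted p = 0.275).

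**Figure D1:**
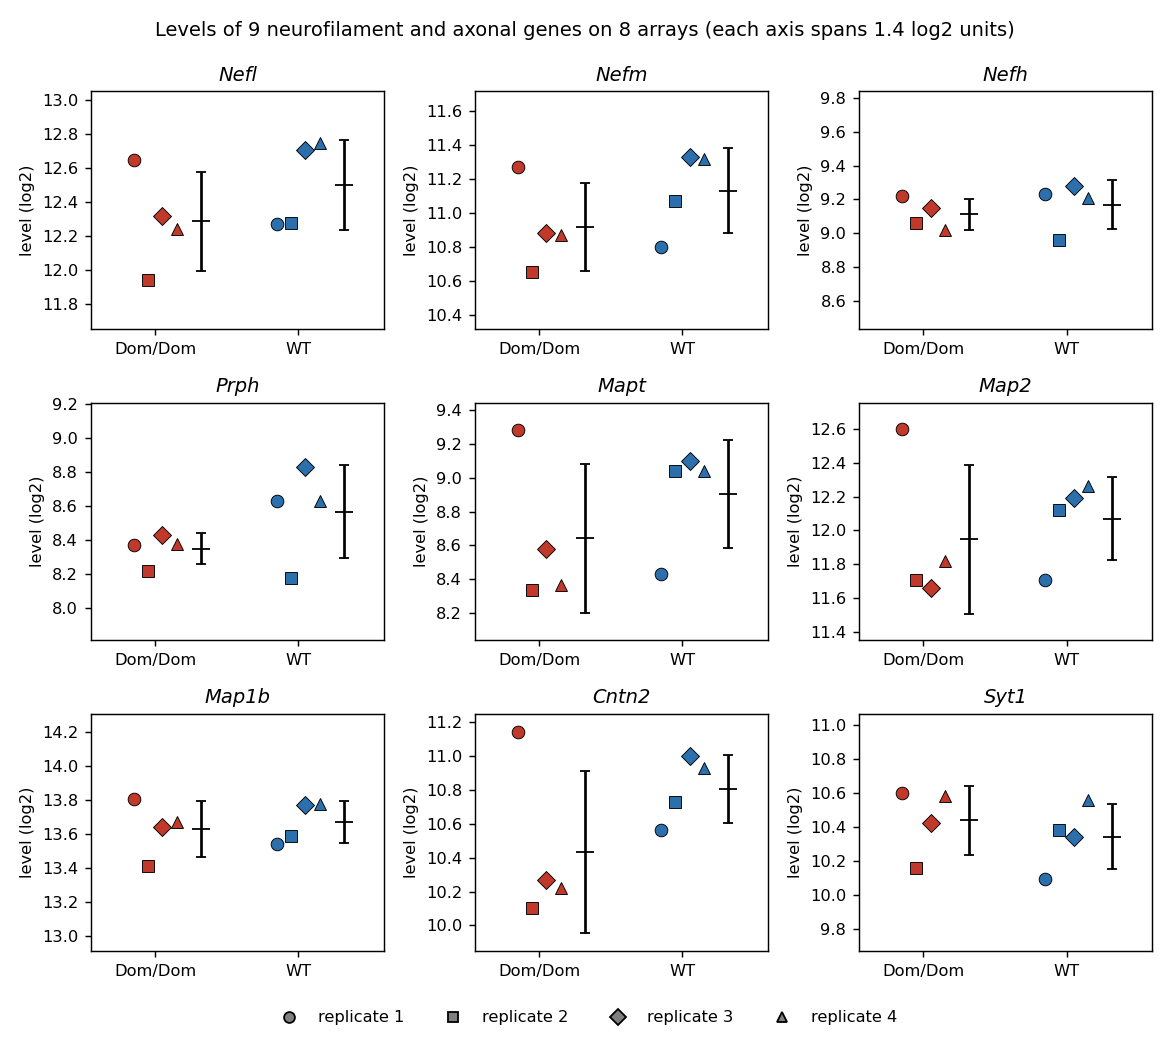
Levels of the 9 measured genes (log2, vertical axis) in the 4 Dom/Dom arrays (red, left) and the 4 WT arrays (blue, right), with a marker shape for each replicate number and the mean ± SD beside the points. The circle of Dom/Dom replicate 1 is the highest Dom/Dom value in 8 of 9 panels, and that of WT replicate 1 is the lowest WT value in 7 of 9.

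The order of the arrays was alike across many of the 9 genes. Dom/Dom replicate 1 was the highest of the Dom/Dom arrays for 8 of the 9 genes, the exception being Prph, while 34.6% of all genes were highest there. Dom/Dom replicate 2 was the lowest for 7 of 9, against 17.2% of all genes. WT replicate 1 was the lowest of the WT arrays for 7 of the 9 genes, the exceptions being Nefh and Prph, against 24.8% of all genes. WT replicates 3 and 4 held the highest WT value for 5 and 4 of the 9, against 17.0% and 21.7% of all genes. Mean levels of the 9 genes, each taken relative to its own mean, were 0.28, -0.32, -0.12 and -0.14 log2 units in Dom/Dom replicates 1 to 4, against -0.13, -0.01, 0.23 and 0.23 in WT. Within Dom/Dom, replicate 1 thus lay above the rest, while in WT replicates 1 and 2 lay below replicates 3 and 4. The same WT order held for Nefl, Nefm, Map2, Map1b and Cntn2.

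The differences between same-numbered arrays followed from this. In replicate 1 the median difference over the 9 genes was 0.47 log2 units, with single genes from -0.26 (Prph) to 0.89 (Map2), and 4 of 9 were at or above 0.50, against 1.68% of all genes. In replicates 2, 3 and 4 the medians were -0.33, -0.39 and -0.44, with the lowest single genes at -0.70 (Mapt), -0.73 (Cntn2) and -0.70 (Cntn2). At or below -0.50 stood 2, 3 and 3 of the 9 genes, against 1.33%, 2.77% and 2.60% of all genes. The medians over all genes lay between -0.01 and 0.02 in the 4 comparisons. The pattern of a positive difference in replicate 1 and negative ones in replicates 2 to 4 was shown by 6 of the 9 genes (Nefl, Nefm, Mapt, Map2, Map1b and Cntn2) and by 9.35% of all genes. In 0 of the 9 genes was the difference negative in all 4, as it was for 10.7% of all genes. That replicate 1 runs against the others was known from earlier results of these arrays, so these counts describe the pattern and do not test it.

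**Figure D2:**
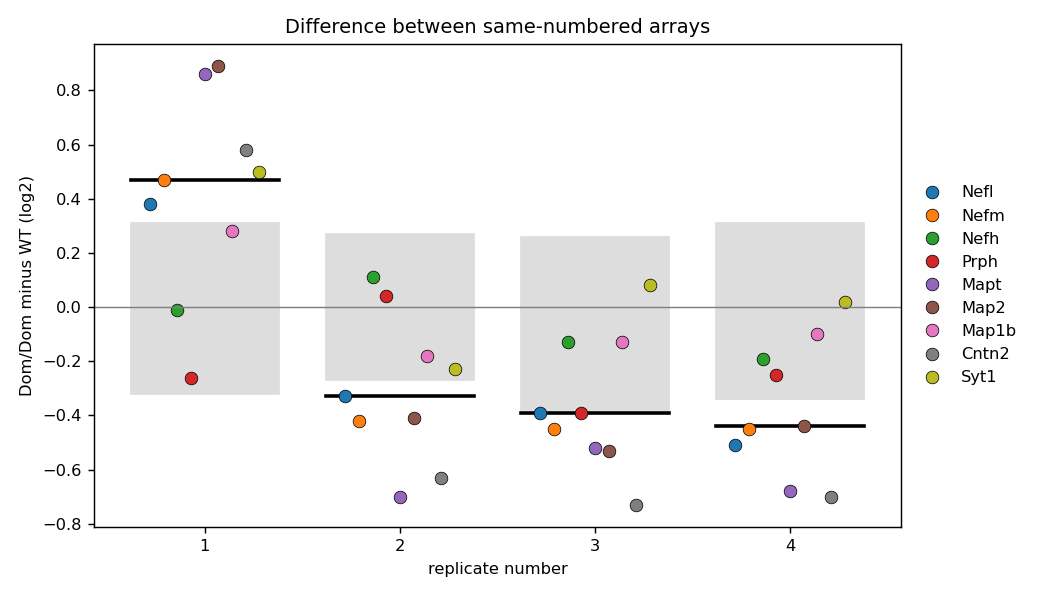
Dom/Dom minus WT (log2, vertical axis) for each of the 9 genes within each replicate number (horizontal axis). Black bars are the medians over the 9 genes, and grey boxes span the 5th to 95th percentile of all 6855 genes. The medians are 0.47 in replicate 1 and between -0.44 and -0.33 in replicates 2 to 4.

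Without both arrays of replicate 1, the differences of all 9 genes were below 0, with a median of -0.41. By limma on the 6 remaining arrays, 2 of the 9 fell, against 1.09% of all genes called in either direction. Cntn2 was 1.61-fold lower, at 10.20 ± 0.09 in Dom/Dom and 10.88 ± 0.14 in WT (SD, n = 3 each), a difference of -0.69 (limma adjusted p = 0.0244). Mapt was 1.55-fold lower, at 8.43 ± 0.13 in Dom/Dom and 9.06 ± 0.03 in WT (SD, n = 3 each), a difference of -0.63 (limma adjusted p = 0.0244). Map2 (-0.46, limma adjusted p = 0.0510), Nefm (-0.44, 0.131) and Nefl (-0.41, 0.408) did not pass. The arrays of replicates 2 to 4 separated by genotype without overlap, Dom/Dom lower, for Nefm, Mapt, Map2 and Cntn2, that is 4 of 9 genes, against 7.24% of all genes.

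With the replicate number as a block and replicate 1 left out, 5 of the 9 fell by limma's adjusted p, against 6.93% of all genes called in either direction: Cntn2 (0.00307), Mapt (0.00422), Nefm (0.00740), Map2 (0.00832) and Nefl (0.0133). Nefh (-0.07, adjusted p = 0.622), Prph (-0.20, 0.257), Map1b (-0.14, 0.192) and Syt1 (-0.04, 0.791) did not pass. The genes of the neurofilament chains and peripherin were divided in this fit, with Nefl and Nefm called and Nefh and Prph not. Prph, which was not called, lay between 8.18 and 8.83 log2 units, near the background gauge of 8.22. Mapt, which was called, lay between 8.34 and 9.28, and Nefh, which was not, between 8.96 and 9.28. Whether dimness bears on these calls was not tested. Whether the differences of Nefl, Nefm, Nefh and Prph are unequal was not tested either. These calls rest on the choice to leave out replicate 1, which was made with its opposite direction known.

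**Figure D3:**
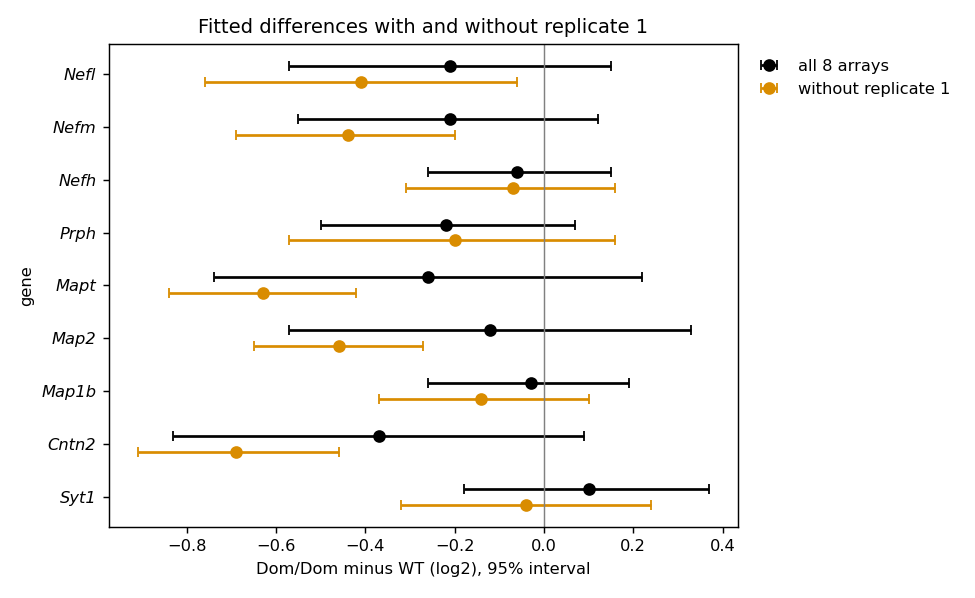
Dom/Dom minus WT (log2, horizontal axis) with unadjusted 95% intervals from limma for each gene (vertical axis), over all 8 arrays (black) and without replicate 1 (orange). All 9 black intervals include 0, and without replicate 1 those of Nefl, Nefm, Mapt, Map2 and Cntn2 lie below 0.

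Other lists of neuronal genes, chosen with earlier results known, ran the same way by replicate number. With all 8 arrays and no block, 0 members passed in any of the lists in this and the next paragraph, against 0.481% of all genes. For the counts of genes higher in Dom/Dom, here and in the lists below, the shares of all genes serve as background. They were 46.8%, 56.5%, 46.2% and 50.1% in replicates 1 to 4. Of 6 pan-neuronal genes measured (20 listed), 6 were higher in Dom/Dom in replicate 1 and 0 in replicates 2, 3 and 4, with medians of 0.65, -0.41, -0.52 and -0.53. The 2 with the largest differences over all arrays, -0.31 each, were Rtn1, a reticulon of the endoplasmic reticulum, and the neuronal splicing factor Rbfox3. Rtn1 had 11.71, 11.07, 10.69 and 10.86 log2 units in Dom/Dom, against 11.02, 11.55, 11.48 and 11.54 in WT. Its limma adjusted p was 1.00, and 0.0379 without replicate 1. That of Rbfox3 was 1.00, and 0.0446 without replicate 1. Without replicate 1, 2 of these 6 genes passed, against 1.09% of all genes. Of 5 axonal adhesion molecules (16 listed), 4 were higher in replicate 1 and 0 in each of the others, with medians of 0.54, -0.33, -0.20 and -0.26. Their largest differences over all arrays were those of Cntn1, a relative of Cntn2, at -0.41 (limma adjusted p = 0.453), and of Cntnap1, a partner of contactins, at -0.11; Cntnap1 lay below the olfactory receptor limit of 8.22 on all 8 arrays.

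Of 12 motors and linkers (21 listed), 10 were higher in replicate 1 and 2, 1 and 1 in replicates 2, 3 and 4. The kinesins Kif1a and Kif3c had the largest differences over all arrays, -0.37 (limma adjusted p = 0.687) and -0.32 (0.239), and both were lower in Dom/Dom in 4 of 4 comparisons. Kif5a, an axonal kinesin chosen after its values were seen, was the single member to fall without replicate 1 (limma adjusted p = 0.0220), against 1.09% of all genes called. Of 11 genes of synaptic vesicles and release (35 listed), 7 were higher in replicate 1 and 2, 2 and 1 in the others. With the replicate block 2 of these fell, against 1.50% of all genes: Sv2c, a vesicle glycoprotein (difference -0.45, limma adjusted p = 0.0282 with the block), and Syngr1, which encodes synaptogyrin (-0.31, 0.0410). Each was lower in Dom/Dom in 4 of 4 comparisons, replicate 1 included. Without the block their limma adjusted p was 0.825 and 0.665, and Sv2c lay above 8.22 log2 units on 6 of 8 arrays. Chga, which encodes chromogranin A of secretory granules, had a difference of -0.32 (limma adjusted p = 0.826; 0.0452 without replicate 1). It was the 1 gene of these 11 to pass without replicate 1, against 1.09% of all genes.

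The remaining lists concerned the microtubule itself, its regulators and other filaments. Of 6 tubulins (17 listed), 3 were higher in replicate 1, near the share of 46.8% over all genes. Their medians were 0.08, -0.07, -0.24 and -0.20 in replicates 1 to 4, with Tubg2 (-0.19) and Tuba4a (-0.17) the largest differences over all arrays. Of 8 further microtubule-associated and growth cone genes (27 listed), 7 were higher in replicate 1, with medians of 0.07, -0.05, -0.15 and -0.11, and the largest differences were those of Tppp (-0.20) and of Marcks (-0.09), an actin-regulating substrate of protein kinase C. Of 9 kinases and phosphatases that act on the cytoskeleton (19 listed), 8 were higher in replicate 1, with medians of 0.16, -0.12, -0.14 and -0.14; Cdk5r1, the activator of the neuronal kinase CDK5, had -0.27 and Mark1, a kinase of microtubule-associated proteins, -0.12. Of 3 other intermediate filament genes (10 listed), the muscle filament gene Des had a difference of 0.36 (limma adjusted p = 0.371) and the astroglial gene Gfap, which lay below 8.22 on all 8 arrays, -0.08. In these 4 lists 0 members passed with the block over all arrays, against 1.50% of all genes, and 0 without replicate 1 and without the block, against 1.09% of all genes. Of the same 4 lists, in the fit with the block and without replicate 1, where 6.93% of all genes were called, 2 of the 9 kinases and phosphatases fell and 0 in the other 3; they were Cdk5r1 (limma adjusted p = 0.0104) and Mapk8ip2 (0.0228), a scaffold of JNK signalling named after its values were seen. By that fit, 5 of 6 pan-neuronal genes, 10 of 12 neurogenic factors, 3 of 5 adhesion molecules, 4 of 12 motors and linkers and 4 of 11 synaptic genes also fell, beside 5 of the 9 neurofilament and axonal genes.

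**Figure D4:**
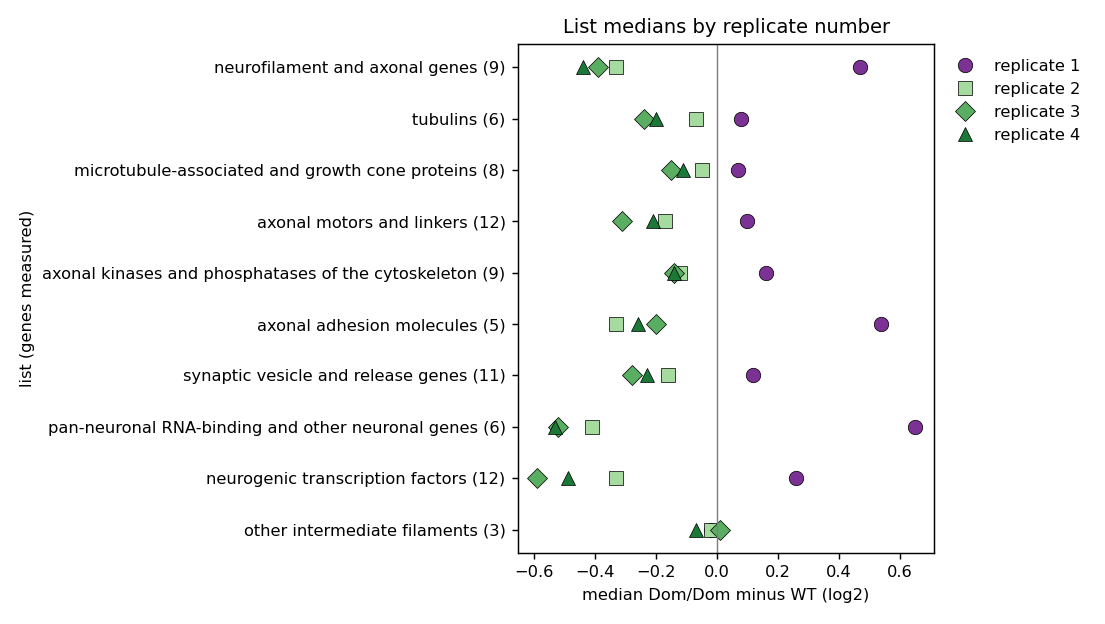
Median Dom/Dom minus WT (log2, horizontal axis) for each list of genes (vertical axis, number measured in brackets), with a marker for each replicate number. Replicate 1 lies right of 0 for every list but the other intermediate filaments, where it is -0.02, and replicates 2 to 4 lie left of 0 for the rest.

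Transcription factors of neurogenesis ran the same way by replicate number. Of 12 measured (32 listed), 10 were higher in Dom/Dom in replicate 1 and 1, 0 and 0 in replicates 2, 3 and 4, with medians of 0.26, -0.33, -0.59 and -0.49, and all 12 had differences below 0 over all arrays (median -0.27). With all 8 arrays 0 of the 12 passed without the block and 1 with it, Pou4f1, against 0.481% and 1.50% of all genes. Without replicate 1 and the block 1 fell, against 1.09% of all genes. It was Nhlh1, a basic helix-loop-helix factor of early neurons (-0.81, limma adjusted p = 0.0137), named after its values were seen. Isl1, a LIM homeodomain factor of sensory and motor neurons, had 10.17, 9.54, 10.02 and 10.27 log2 units in Dom/Dom, against 10.00, 10.41, 11.11 and 11.20 in WT. Pou4f1, a factor of sensory neurons, was lower in Dom/Dom in 4 of 4 comparisons, with a difference of -0.47 in replicate 1 (limma adjusted p = 0.201; 0.00744 with the replicate block). Isl1 had a difference of 0.18 in replicate 1.

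The genes whose profiles over the 8 arrays were most like the mean profile of the 9 were sought among the other 6846, by the mean absolute difference of levels after each gene's own mean was taken away. They were Myt1l, a neuronal zinc finger factor (0.047 log2 units), the beta-tubulin Tubb2a (0.058), Lratd1 (0.068), Prrxl1, a homeodomain factor of sensory neurons (0.074), Chat, the enzyme that makes acetylcholine (0.075), and Nrg3, a neuregulin (0.076). The median over all other genes was 0.21. A gene equal on all 8 arrays would score 0.18, the mean absolute size of the profile. Of the 9 themselves, Nefm (0.05) and Nefl (0.07) lay nearest their mean profile, and Prph and Cntn2 (0.17 each) farthest. Each of the 9 is part of that mean, which lowers its distance, and 0.17 is hardly below the score of a flat gene. Myt1l stood at 8.62, 7.87, 8.13 and 8.05 log2 units in Dom/Dom, against 8.17, 8.17, 8.53 and 8.47 in WT. Myt1l, Chat and Nrg3 lay below 8.22 log2 units, the 95th percentile of the olfactory receptor genes, on 5 or more of 8 arrays.

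Markers of other cells were read beside these results, as sums of linear signal over each list. Those of the neural crest and its glia (12 of 16 measured) ran from 44088 to 46612 in Dom/Dom and from 54141 to 66570 in WT. That list includes Sox10, the mutated gene (difference -1.20). Of its 12 genes, 8 had differences below 0 over all arrays, the largest being those of Cdh19 (-4.25) and Erbb3 (-1.57). The 4 above 0 were Tfap2b (0.02), Sox9 (0.09), Twist1 (0.10) and Pax3 (0.05). Whether the cultures held fewer crest cells was not tested. Sensory neuron markers (7 of 17 measured) ran from 4614 to 5479 in Dom/Dom and from 5077 to 7310 in WT, and neural tube markers (4 of 22 measured) from 20729 to 26347 in Dom/Dom and from 22671 to 25604 in WT. Dom/Dom replicate 1 held the highest neural tube sum of all 8 arrays. That sum was mostly the signal of Fabp7 (14.19 log2 units there) and Zic2 (12.67), with little from Lhx4 (9.69) and Chat (8.37). Of the 4 neural tube markers, the motor neuron factor gene Lhx4, Chat and Fabp7, which is also on the crest list, were higher in Dom/Dom than in WT in replicate 1, by 0.80, 0.44 and 0.29 log2 units, and Zic2 was lower, with a difference of -0.22. Chat was above 8.22 on 1 of 8 arrays, Dom/Dom replicate 1. Autonomic neuron markers (2 of 14 measured, Ddc and Chga) ran from 1192 to 1503 in Dom/Dom and from 1282 to 1631 in WT. Blood and endothelial markers (3 of 17) ran from 2121 to 7432 in Dom/Dom, lowest in replicate 1, and from 3658 to 12213 in WT, epithelial markers (10 of 15) from 10729 to 13536 in Dom/Dom and from 11910 to 17420 in WT, and somite and mesoderm markers (8 of 17) from 4772 to 6627 in Dom/Dom and from 3532 to 5890 in WT. The blood and endothelial sum was mostly that of Hba-x (10.74 to 12.77 log2 units in Dom/Dom), with Pecam1 and Ptprc at or below 8.36 on every array. The part of any of these cell types in the levels of the axonal genes was not tested.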

How the data were processed

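Per the submitters' processing notes, the deposited log2 values came from RMA and Partek, whose versions and settings are not stated in the labels; RMA compresses differences of dim probe sets. The table held 16381 probe sets, part of the array, of which 7416 had 1 gene symbol, 509 several and 8456 none in the platform annotation. The brightest single-symbol probe set per gene was kept, giving 6855 genes, 6829 of them with symbols from a RefSeq table (GRCm38.p6) by gene identifier; 97.9% lay on chromosomes 1 and 10 to 16. Array medians lay between 8.60 and 8.78, and 0 arrays were identical. No detection calls came with the values, and the number of arrays limits the precision.

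Genotypes and replicate numbers came from the sample titles. Genotypes were compared over all genes in R 4.3.3 by the lmFit and eBayes steps of limma 3.58.1 (genotype as the only term, two-sided, Benjamini-Hochberg adjustment, threshold 0.05). Same-numbered arrays' deviations from their genotype's mean had correlations over genes of 0.47 (replicate 1), 0.58 (2), 0.61 (3) and 0.67 (4). All exceed the limit of 0.1 set beforehand. So did some different-numbered pairs: Dom/Dom 3 with WT 4 (0.38), Dom/Dom 4 with WT 3 (0.21), Dom/Dom 2 with WT 1 (0.14) and Dom/Dom 1 with WT 2 (0.11). Replicates 1 and 2 were thus alike to a degree, as were 3 and 4. Each array correlated highest with its own number, so the numbers appear to pair the arrays, though no label states it. The values printed without mention of the block are nevertheless from the fit without it, which takes no account of this pairing. The block is given as an alternative, and by it 1.50% of all genes passed rather than 0.481%. The fit with the replicate block, and fits without arrays or replicate numbers, were alternatives. In simulated arrays with this spread, limma called 95% of the 100 genes changed by 1 log2 unit, among 6855. Of the genes changed by 2 log2 units it called 100%. Changes smaller than 1 log2 unit were not simulated, and the neurofilament and axonal genes differed by -0.37 to 0.1 over all 8 arrays. These rates therefore do not say how often differences of that size would be called.

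The members, the lists and the rule for named genes were chosen with earlier results of these data known. The rule named every measured member, in each other list the genes past the threshold without or with the replicate block and the 2 largest differences, the 6 closest profiles and Sox10; for lists of other cell types only summed signal is given beside named members.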

Additional observations from a re-analysis of the deposited data

Results flagged for a closer look

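For the 9 genes, Sox10 and the 6 closest genes, each genotype's set of 4 arrays was examined for a value far from the other 3. Of the 18 sets of the 9 genes, 2 held one, and of all 32 sets 4 did; chance flags about 1 in 20 sets. The sets share the same 8 arrays, and the direction of replicate 1 was known, so these counts are no test. Mapt was low in WT replicate 1 (8.43 log2 units, the others 9.04 to 9.10). In Dom/Dom replicate 1 the high values were those of Cntn2 (11.14, the others 10.10 to 10.27), Tubb2a (10.58, the others 10.14 to 10.20) and Chat (8.37, the others 7.75 to 7.82). Tubb2a and Chat were picked for a profile like that of the 9 genes, so they do not add to it independently.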

How the results depend on the processing

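With the replicate block the count over all genes was 103 and that over the 9 genes 0, and with all 8 arrays the block changed no call of the 9 genes, while Sv2c, Syngr1 and Pou4f1, of the other genes named, passed with it and not without it. Leaving out each array, or both arrays of a replicate number, the count over all genes ran from 4 to 75, that over the 9 from 0 to 2, and the median difference of the 9 from -0.41 to -0.10; the 2 calls came without replicate 1 alone. With the replicate block and without replicate 1 the counts were 475 genes and 5 of the 9. With all probe sets tested 4 were called, and with array weights 190 genes, 0 of the 9 in either; the weights moved the median of the 9 to -0.35 and Cntn2 to -0.58 (limma adjusted p = 0.0627). In those leave-out fits Map1b ran from -0.14 to 0.04, Map2 from -0.46 to 0.01 and Syt1 from -0.04 to 0.20, so each changed sign in at least 1, and Syt1 was also -0.04 with the block and without replicate 1. Apart from the calls without replicate 1, the 9 genes kept their side of the threshold in every alternative. Centring on array medians, quantile normalization, the mean of probe sets and the limit on dim genes gave medians of the 9 between -0.27 and -0.19 and called 0 of the 9. The cause of these shifts was not tested.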
